A study of Mus musculus with 6 samples.

Results

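The genes described here mark the endothelial cells that line blood vessels. They are 10 genes chosen by name: Pecam1 and Cdh5, which encode junction proteins used to identify endothelium, Flt1 and Kdr, which encode receptors for vascular endothelial growth factor (VEGF), Plvap, which encodes a protein of the diaphragms of capillary fenestrae, Tek and Tie1, which encode the angiopoietin receptor and its co-receptor, Vcam1, an adhesion molecule for leukocytes, Vwf, the von Willebrand factor that tethers platelets, and Emcn, a sialomucin of capillaries and veins. All 10 were among the 50686 genes of the deposited count table and among the 13178 genes with enough reads to be tested.

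RNA was measured in whole lacrimal glands, which make the aqueous layer of tears, of C57BL/6-labelled mice aged 13 weeks. There were 3 wild-type libraries and 3 libraries of Eda-/- mice, titled Tabby, which lack ectodysplasin A, a TNF-family ligand that skin appendages and glands need to form. The labels name no treatment, no allele, no restriction of the deletion to a cell type and no relation between the animals, and the design text calls the samples of a group biological replicates. Libraries held 11894395 to 15700899 counts, and Eda itself, read first as a check of the labels, was counted 41, 48 and 42 times in the wild-type libraries 1 to 3 against 2, 0 and 0 times in the Eda-/- libraries 1 to 3. The 6 lacrimal acinar markers summed to 534 to 577 CPM in wild-type and 623 to 674 CPM in Eda-/- libraries. The higher sum was not shared by all of them: 5 were tested, with a median log2 fold change of -0.13 (Eda-/- over wild-type) and 3 below 0. Bhlha15 was higher (0.36, edgeR adjusted p = 0.0069) and Spdef lower (-0.81, 0.017). Every one of the 10 endothelial genes was detected in every library.

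Endothelial cells respond to VEGF chiefly through KDR, the receptor that carries most of the mitogenic and permeability signal, while FLT1 binds the ligand more tightly and, also as a soluble form, limits how much reaches KDR. Secretory glands are commonly supplied by fenestrated capillaries, whose pores are spanned by PLVAP diaphragms and whose upkeep depends on VEGF from the neighbouring epithelium. Activated endothelium displays VCAM1, which binds integrin alpha4 beta1 on leukocytes. Endothelium, activated or not, stores von Willebrand factor in granules from which it is released.

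Flt1, Vwf and Vcam1 were lower and Plvap was higher in the Eda-/- glands, whereas Pecam1, Cdh5, Kdr, Tek, Tie1 and Emcn did not pass the test. Of the 10 genes, 1 therefore passed as higher and 3 as lower (quasi-likelihood test of edgeR at an adjusted p under 0.05, Benjamini-Hochberg over all tested genes). Over all genes 6.21% passed as higher, 6.9% as lower and 13.1% in either direction. The counts given for each list below are to be set against these shares. In each of the 4 genes that passed, the 3 libraries of one group all lay on the same side of the other group's, a separation seen in 32.1% of all genes. The median log2 fold change of the 10 genes was -0.09, against 0.003 over all tested genes, and it ran from -0.25 without Eda-/- 1 to -0.02 without Eda-/- 3. Levels below are CPM, counts normalised to library size and scaled between libraries by TMM, errors are SD over 3 libraries, and a positive log2 fold change means a higher level in Eda-/-. In tissue RNA of this kind, fewer endothelial cells and less RNA per endothelial cell cannot be told apart.

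**Figure D1:**
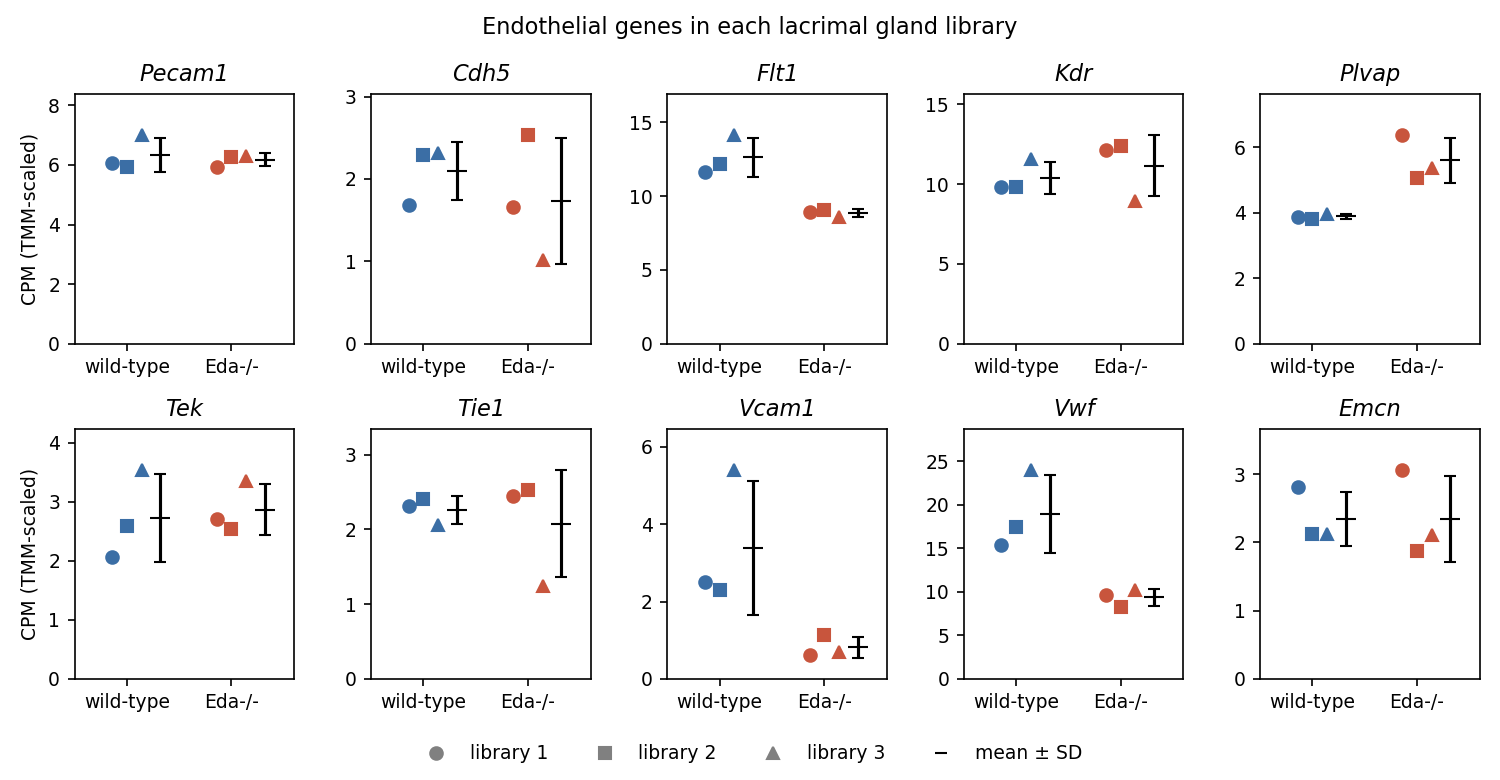
Level of each of the 10 endothelial genes (y axis, CPM scaled by TMM, each panel from 0) in the 3 wild-type (blue) and 3 Eda-/- (red) libraries, with marker shape for the library number and a bar for the mean ± SD. The groups are apart for Flt1, Plvap, Vcam1 and Vwf and share a range for the other genes.

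Of the VEGF receptors Flt1 passed and Kdr did not. Both are encoded on chromosome 5 of GRCm38, on the minus strand: Flt1 (ENSMUSG00000029648.13) at chr5:147561604-147726011 and Kdr (ENSMUSG00000062960.10) at chr5:75932827-75978458. The 247 bases that end just before each annotated start are printed 5′ to 3′ in the direction of transcription (RefSeq, GRCm38.p6, chr5:147726015-147726261 for Flt1 and chr5:75978459-75978705 for Kdr, both minus strand), since only the first of these receptors passed in the same libraries. Capitals mark GGAA, the core bound by ETS factors, on either strand (TTCC on the other), and TGACGTCA, the cyclic AMP response element, which is its own reverse complement; no match overlapped another.
Flt1: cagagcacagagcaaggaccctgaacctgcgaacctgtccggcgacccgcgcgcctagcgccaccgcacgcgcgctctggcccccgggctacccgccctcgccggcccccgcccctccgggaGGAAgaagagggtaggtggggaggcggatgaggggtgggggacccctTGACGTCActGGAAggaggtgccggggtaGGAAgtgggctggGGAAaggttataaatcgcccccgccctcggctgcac
Kdr: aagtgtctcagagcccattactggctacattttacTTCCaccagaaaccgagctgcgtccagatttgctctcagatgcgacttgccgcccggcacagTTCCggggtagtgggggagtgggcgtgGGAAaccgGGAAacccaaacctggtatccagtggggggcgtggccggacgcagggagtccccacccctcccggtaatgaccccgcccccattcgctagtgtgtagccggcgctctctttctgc
Each window held 4 GGAA cores, and GGAA occurs in 93.2% of the 32851 RefSeq windows of this length. TGACGTCA stood once in the Flt1 window and not in the Kdr window, and 1.52% of all windows hold it. GC content was 70.9% in the Flt1 window and 61.5% in the Kdr window. These matches are letters in a window and not measured binding sites.

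Flt1 was lower in Eda-/- glands. Its level was 11.6, 12.2 and 14.1 CPM in wild-type 1, 2 and 3 and 8.91, 9.09 and 8.58 CPM in Eda-/- 1, 2 and 3. Every Eda-/- library lay below every wild-type library, and the Eda-/- values were close together. The means were 12.6 ± 1.32 and 8.86 ± 0.26 CPM (SD, n = 3), a log2 fold change of -0.51 (SE 0.12, 95% interval -0.76 to -0.26, edgeR adjusted p = 0.0097), or 1.43-fold lower. Flt1 passed under all 16 alternative settings, with log2 fold changes from -0.79 to -0.42.

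For Kdr no difference was called. Its level was 9.79, 9.82 and 11.6 CPM in the wild-type libraries and 12.1, 12.4 and 8.97 CPM in the Eda-/- libraries. Eda-/- 1 and 2 held the highest values and Eda-/- 3 the lowest, so the groups overlapped. The log2 fold change was 0.10 (SE 0.14, edgeR adjusted p = 0.703) with a 95% interval of -0.19 to 0.39, which lies wholly above that of Flt1.

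The ratio of Flt1 to Kdr counts inside a library does not depend on how libraries are scaled. Wild-type 1, 2 and 3 gave 1.18, 1.24 and 1.22, and Eda-/- 1, 2 and 3 gave 0.734, 0.735 and 0.957. Flt1 counts exceeded Kdr counts in every wild-type library and fell short of them in every Eda-/- library. These counts are not adjusted for length, and Flt1 has 13.5 kb of exon against 9.03 kb for Kdr. Per kilobase of exon mean Flt1 stood below mean Kdr in both groups, at 0.935 and 1.15 CPM in wild-type and 0.656 and 1.24 CPM in Eda-/-. Only the difference between the groups is therefore read from the ratio. The difference of the log2 ratios was -0.60, with SDs of 0.03 in wild-type and 0.22 in Eda-/-. A two-sided exact permutation test gave p = 0.1, the smallest that 3 against 3 libraries allow, and 0.22 after Benjamini-Hochberg adjustment over the 11 ratios computed, so no ratio could pass a threshold of 0.05.

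Of the 8 VEGF ligands and co-receptors listed beside these receptors, 6 were tested, 0 passed as higher and 2 as lower, with a median log2 fold change of -0.38. Nrp1 and Nrp2 encode neuropilins, co-receptors that present VEGF to its receptors and also bind semaphorins. Nrp1 had 15.2, 16.5 and 23.5 CPM in wild-type libraries and 12.6, 9.65 and 11.4 CPM in Eda-/- libraries (log2 fold change -0.71, SE 0.17, edgeR adjusted p = 0.0245). Nrp2 had 3.24, 5.06 and 6.03 CPM against 3.14, 2.25 and 2.50 CPM (-0.86, SE 0.24, edgeR adjusted p = 0.0279). In both, wild-type 3 held the highest value and each Eda-/- library lay below each wild-type library, although for Nrp2 the nearest libraries were wild-type 1 and Eda-/- 1. The call for Nrp1 was lost without any 1 Eda-/- library (adjusted p up to 0.0945) and with the GC content and length trend removed (0.076). For Nrp2 it was lost without wild-type 2 or 3 or Eda-/- 2 or 3 (up to 0.108) and with limma-voom (0.0774). Vegfa, the main ligand, had 37.0 ± 1.08 CPM in wild-type and 40.5 ± 9.58 in Eda-/- (log2 fold change 0.13, edgeR adjusted p = 0.614).

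Plvap was the one gene of the 10 to pass as higher in Eda-/- glands. The gene (ENSMUSG00000034845.6, chr8:71497765-71511752, minus strand) had 3.87, 3.82 and 3.98 CPM in wild-type 1, 2 and 3 and 6.37, 5.06 and 5.38 CPM in Eda-/- 1, 2 and 3. The wild-type libraries were almost level with each other, and the lowest Eda-/- library stood above all of them. The means were 3.89 ± 0.081 and 5.6 ± 0.685 CPM (SD, n = 3), a log2 fold change of 0.53 (SE 0.16, 95% interval 0.18 to 0.88, edgeR adjusted p = 0.0458), or 1.44-fold higher. The call was marginal: adjusted p was 0.0537 to 0.151 when any 1 of the 6 libraries was left out, 0.176 with DESeq2, 0.0782 with no filter on low counts and 0.0653 with a replicate block. When libraries were scaled by their totals alone, the log2 fold change was 0.25 (adjusted p = 0.267) and the median over all genes was -0.28.

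Relative to Pecam1 in the same library, Plvap counts stood at 0.639, 0.644 and 0.569 in wild-type and at 1.07, 0.806 and 0.852 in Eda-/- glands. These ratios did not overlap and differed by 0.55 on the log2 scale (exact permutation p = 0.1, adjusted 0.22). Gtpbp3, a gene of mitochondrial tRNA modification on the opposite strand, overlaps the Plvap locus but shares 0 exon bases with it. Its level was 9.39 ± 0.266 CPM in wild-type and 9.36 ± 1.30 in Eda-/-.

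The list of fenestration and caveola genes beside Plvap held 12 genes, of which 9 were tested, 1 passed as higher and 1 as lower, with a median log2 fold change of -0.12, which turned to 0.06 without wild-type 3 and 0.04 without Eda-/- 3. Rgcc, a regulator of the cell cycle that responds to complement and is expressed in endothelium among other cells, had 45.4, 43.7 and 40.3 CPM in wild-type and 69.0, 55.9 and 57.5 CPM in Eda-/- libraries (log2 fold change 0.49, SE 0.09, edgeR adjusted p = 0.0019). Like Plvap, it was higher in every Eda-/- library than in any wild-type library, and its call was lost only when libraries were scaled by their totals (0.22, adjusted p = 0.0868). Cav2, a caveolin that joins caveolin-1 in the flask-shaped pits of the endothelial membrane, had 6.42, 6.76 and 6.42 CPM against 4.02, 4.87 and 4.76 CPM (-0.52, SE 0.15, edgeR adjusted p = 0.0327). Its call did not survive the loss of any 1 library (adjusted p 0.0511 to 0.112), and was also lost with DESeq2 (0.138) and with the GC content and length trend removed (0.0713).

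Vcam1 showed the widest difference among the 10 genes and had the fewest reads of them in the Eda-/- libraries. The gene (ENSMUSG00000027962.14, chr3:116109949-116129688, minus strand) was counted 40, 39 and 84 times in wild-type glands and 7, 12 and 9 times in Eda-/- glands. In CPM these were 2.49, 2.29 and 5.39 against 0.61, 1.12 and 0.70. Wild-type 3 stood at more than the sum of the other wild-type libraries, and all 3 Eda-/- libraries lay below the lowest wild-type one. The means were 3.39 ± 1.73 and 0.813 ± 0.274 CPM (SD, n = 3), a log2 fold change of -2.06 (SE 0.41, 95% interval -2.95 to -1.17, edgeR adjusted p = 0.0065), or 4.17-fold lower. Without wild-type 3 the log2 fold change was -1.56, and the call was lost without Eda-/- 1 (adjusted p = 0.0542) or without Eda-/- 3 (0.0535). The antisense gene Gm43109 shares 61 exon bases with Vcam1 and held 1 count in all libraries together.

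Vwf (ENSMUSG00000001930.17, chr6:125546774-125686679, plus strand) was lower in Eda-/- glands with far more reads behind it, 88 to 373 counts per library. Its level was 15.3, 17.4 and 23.9 CPM in wild-type 1, 2 and 3 and 9.60, 8.25 and 10.2 CPM in Eda-/- 1, 2 and 3. The groups did not overlap, and wild-type 3 was again the highest. The means were 18.9 ± 4.49 and 9.36 ± 1.01 CPM (SD, n = 3), a log2 fold change of -1.01 (SE 0.17, 95% interval -1.37 to -0.64, edgeR adjusted p = 0.0027), or 2.01-fold lower. Vwf passed under all 16 alternative settings, from -1.29 to -0.79.

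Against Pecam1 in the same library, Vwf counts were 2.54, 2.93 and 3.42 in wild-type and 1.62, 1.31 and 1.62 in Eda-/- glands, a difference of -0.96 on the log2 scale. For Vcam1 the ratios were 0.412, 0.386 and 0.771 in wild-type and 0.103, 0.179 and 0.111 in Eda-/- glands, a difference of -1.97. Neither pair of groups overlapped (exact permutation p = 0.1 for each, adjusted 0.22). Flt1 relative to Pecam1 differed by -0.48, also without overlap.

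**Figure D2:**
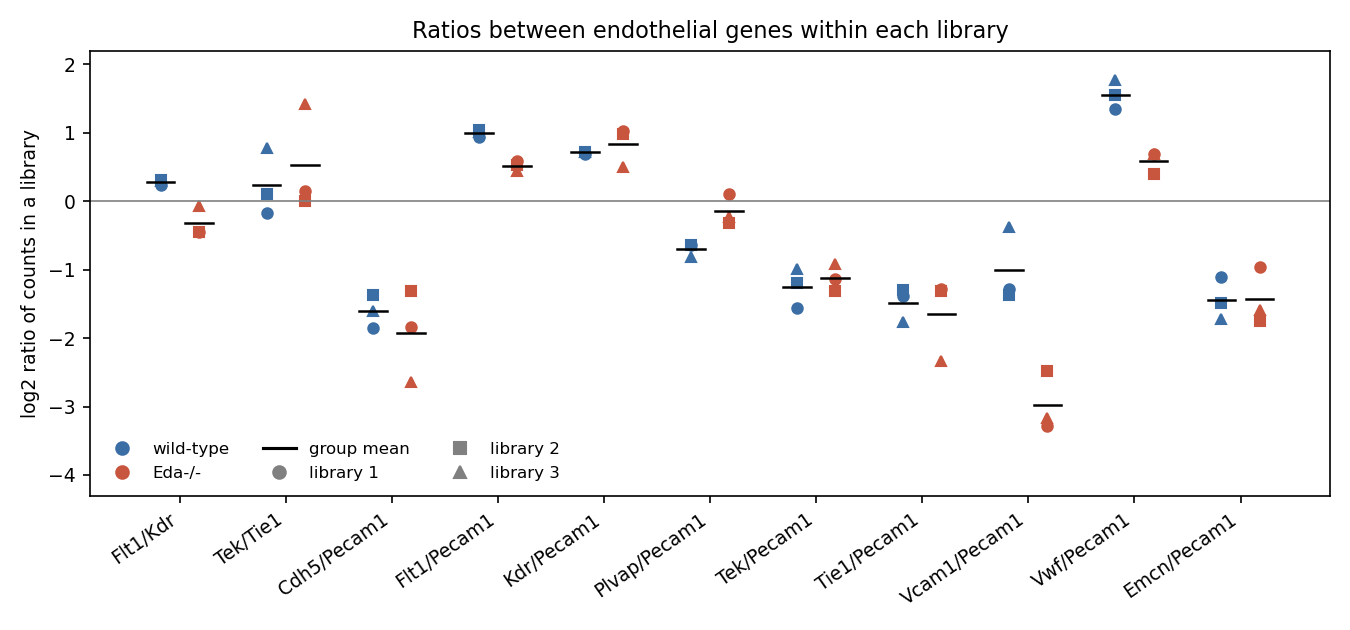
Log2 ratio of the counts of 2 genes within a library (y axis) for 11 gene pairs (x axis), with 1 point per library and a bar for the group mean. Flt1/Kdr and the ratios of Flt1, Plvap, Vcam1 and Vwf to Pecam1 do not overlap between wild-type (blue) and Eda-/- (red), and the other 6 ratios do.

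Around Vcam1, 16 genes of leukocyte adhesion were listed, 11 were tested, 0 passed as higher and 3 as lower, with a median log2 fold change of -0.39, which was -0.13 without wild-type 3 and -0.12 without Eda-/- 1. Itga4 encodes the alpha4 chain of the integrin that binds VCAM1. It had 4.93, 5.18 and 6.87 CPM in wild-type and 3.67, 2.16 and 2.11 CPM in Eda-/- libraries (log2 fold change -1.10, SE 0.23, edgeR adjusted p = 0.0048). Its partner Itgb1, which many cell types express, stood at 79.8 ± 5.93 and 82.5 ± 7.49 CPM (0.05, edgeR adjusted p = 0.762). Itgb2, the beta2 integrin chain of leukocytes, was lower (-1.29, SE 0.26, edgeR adjusted p = 0.0041), as was Cx3cl1, a chemokine held on the endothelial and epithelial surface, at 12.5 ± 1.97 against 6.89 ± 0.88 CPM (-0.85, SE 0.14, edgeR adjusted p = 0.0011). Icam1, the ligand of beta2 integrins, had 1.56, 1.47 and 3.92 CPM against 1.40, 1.69 and 0.55 CPM and did not pass (-0.95, edgeR adjusted p = 0.27, or 0.0351 with no filter on low counts). Wild-type 3 was the highest library for Icam1, Itga4, Itgb2 and Cx3cl1, as it was for Vcam1, Vwf, Flt1, Pecam1 and Tek.

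The haemostasis genes other than Vwf numbered 11, of which 7 were tested and 0 passed in either direction with edgeR, DESeq2 or limma-voom, with a median log2 fold change of -0.18 (-0.09 without Eda-/- 3 and -0.34 without wild-type 2) and 3 lower at an unadjusted edgeR p under 0.05. F8, coagulation factor VIII, which circulates bound to von Willebrand factor and is made by endothelium, had 5.11, 3.82 and 5.39 CPM in wild-type and 3.32, 2.53 and 3.51 CPM in Eda-/- libraries (-0.60, SE 0.20, edgeR adjusted p = 0.0618). Its groups were apart, but the call was made only by some settings, with adjusted p 0.0443 without wild-type 2, 0.0459 with a replicate block, 0.0491 with no filter on low counts and 0.00629 under library totals. Thbd, thrombomodulin of the endothelial surface, stood at 3.96 ± 0.235 and 2.94 ± 0.375 CPM (-0.43, edgeR adjusted p = 0.162).

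The angiopoietin receptors gave no difference that could be told from the spread. Tek (ENSMUSG00000006386.15, chr4:94739289-94874976, plus strand) ran from 2.06 to 3.53 CPM in wild-type and from 2.53 to 3.35 CPM in Eda-/- libraries (log2 fold change 0.08, 95% interval -0.43 to 0.59, edgeR adjusted p = 0.865). Tie1 (ENSMUSG00000033191.14, chr4:118471191-118490061, minus strand) ran from 2.05 to 2.41 and from 1.25 to 2.53 CPM (-0.14, 95% interval -0.72 to 0.44, edgeR adjusted p = 0.789). Both intervals are wide, since Tie1 and Tek rest on 16 to 55 counts per library. The Tek to Tie1 count ratio was 0.892, 1.07 and 1.72 in wild-type and 1.11, 1.0 and 2.69 in Eda-/- glands, with the third library highest in each group (exact permutation p = 0.6).

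Their pathway list held 6 further genes, of which 5 were tested and 2 passed as lower, with a median log2 fold change of -1.04, or -0.58 without Eda-/- 3. Svep1 encodes a large matrix protein that binds TIE1. It had 13.7, 14.4 and 19.1 CPM in wild-type and 6.81, 7.78 and 8.26 CPM in Eda-/- libraries (-1.04, SE 0.14, edgeR adjusted p = 0.00017), the strongest call of the vascular lists, and passed under every alternative. Dok2, an adaptor that docks on TEK and is also abundant in blood cells, was at 1.99 ± 0.602 against 0.895 ± 0.127 CPM (-1.16, SE 0.32, edgeR adjusted p = 0.0279), a call that was lost with DESeq2 (0.0891), with limma-voom (0.0654), without wild-type 2 or 3 and without any 1 Eda-/- library (up to 0.102). Angpt1, the activating ligand made by pericytes and stroma, was at 0.885 ± 0.0976 against 0.413 ± 0.355 CPM (-1.12, edgeR adjusted p = 0.163). Ptprb, the endothelial phosphatase that restrains TEK, stood at 13.6 ± 0.0794 and 14.6 ± 1.11 CPM (0.10, edgeR adjusted p = 0.59).

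The genes that identify endothelium gave no call either way. Pecam1 (ENSMUSG00000020717.19, chr11:106654217-106750628, minus strand) had 6.05, 5.94 and 7.0 CPM in wild-type 1, 2 and 3 and 5.94, 6.28 and 6.32 CPM in Eda-/- 1, 2 and 3. The groups overlapped almost completely (log2 fold change -0.03, SE 0.14, 95% interval -0.34 to 0.27, edgeR adjusted p = 0.909). Cdh5 (ENSMUSG00000031871.9, chr8:104101625-104144511, plus strand), the VE-cadherin of endothelial junctions, ran from 1.68 to 2.31 CPM in wild-type and from 1.01 to 2.53 CPM in Eda-/- libraries (-0.30, 95% interval -0.95 to 0.35, edgeR adjusted p = 0.583). Eda-/- 3 was the lowest library for Cdh5 and also for Tie1. Emcn (ENSMUSG00000054690.17, chr3:137341067-137432185, plus strand) averaged 2.35 ± 0.397 and 2.35 ± 0.626 CPM (0.00, 95% interval -0.53 to 0.53, edgeR adjusted p = 1.0).

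**Figure D3:**
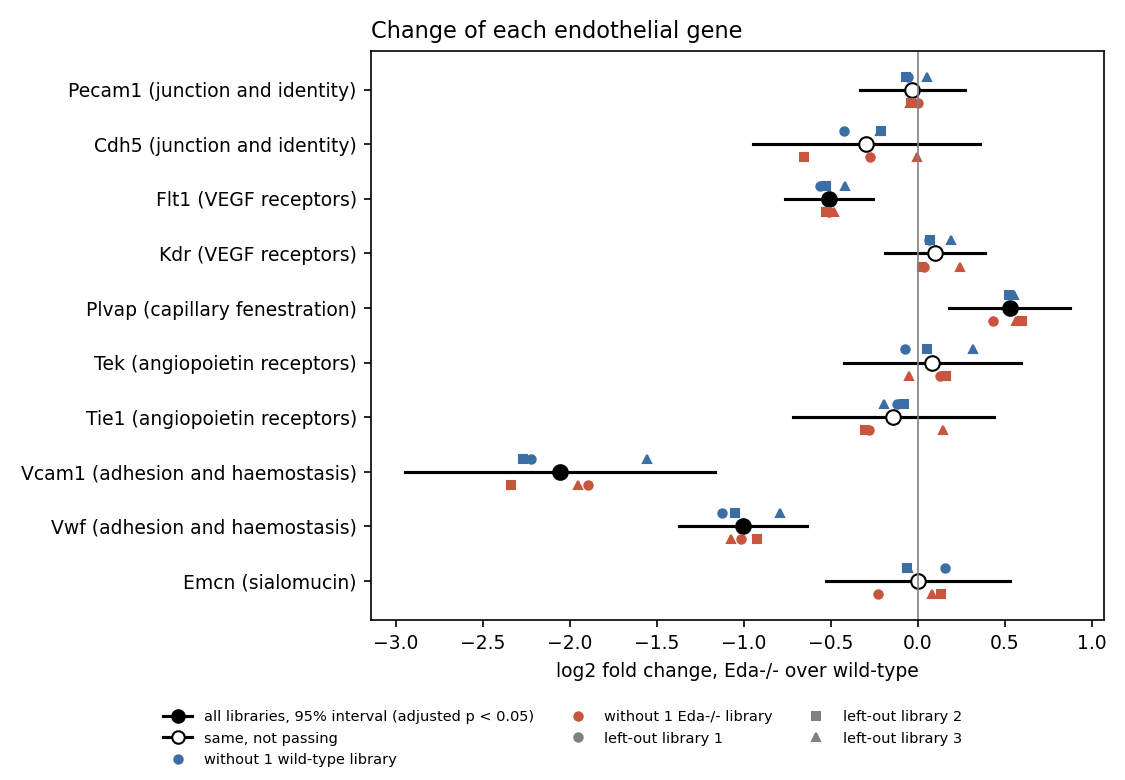
Log2 fold change of each endothelial gene, Eda-/- over wild-type (x axis), with its 95% interval from edgeR; filled circles passed at an adjusted p under 0.05. Small blue and red markers give the value without 1 wild-type or 1 Eda-/- library: they stay on 1 side of 0 for Flt1, Kdr, Plvap, Vcam1, Vwf and Cdh5, and cross it for Pecam1, Tek, Tie1 and Emcn.

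Because longer transcripts yield more reads, levels of different genes were compared per kilobase of exon. In wild-type glands Plvap was the highest at 1.96 ± 0.0408 CPM per kb. It was followed by Vwf at 1.18 ± 0.28, Kdr at 1.15 ± 0.112, Pecam1 at 1.02 ± 0.0933 and Flt1 at 0.935 ± 0.0979 CPM per kb. Tek at 0.578, Cdh5 at 0.499, Tie1 at 0.459, Emcn at 0.434 and Vcam1 at 0.383 CPM per kb made up the lower group. The libraries of neighbours in this order overlapped except between Plvap and Vwf and between Flt1 and Tek.

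In Eda-/- glands Plvap again led, at 2.82 ± 0.345 CPM per kb, ahead of Kdr at 1.24 ± 0.211 and Pecam1 at 0.992 ± 0.0335. Flt1 at 0.656 and Vwf at 0.582 CPM per kb stood on either side of Tek at 0.608, below Kdr and Pecam1. Emcn at 0.434, Tie1 at 0.422 and Cdh5 at 0.413 CPM per kb came next, and Vcam1 was last at 0.0916 ± 0.0309. Here the libraries of neighbours overlapped except between Plvap and Kdr, between Pecam1 and Flt1, and between Cdh5 and Vcam1.

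A wider list of 25 pan-endothelial genes, none of them among the 10, was read in the same way. Of these 18 were tested and 0 passed in either direction with edgeR, DESeq2 or limma-voom, with a median log2 fold change of -0.16 (-0.26 without Eda-/- 1 to -0.08 without wild-type 3) and an unadjusted edgeR p under 0.05 for 1 higher and 2 lower. Cd34, a sialomucin of endothelium and of some stromal cells, stood at 8.89 ± 0.905 and 7.13 ± 0.503 CPM (-0.31, edgeR adjusted p = 0.141). Cd93, a lectin-like receptor of endothelium, stood at 4.51 ± 0.808 and 4.35 ± 1.06 CPM (-0.05, edgeR adjusted p = 0.896), and Egfl7, a factor secreted by endothelium, at 4.07 ± 0.755 and 4.29 ± 0.314 CPM (0.08, edgeR adjusted p = 0.831). The summed level of the list was 51.3 to 56.2 CPM in wild-type and 45.6 to 53.0 CPM in Eda-/- libraries, ranges that overlapped, and no gene of the list was at 0 in all libraries. The mean log2 level of the tested genes, relative to wild-type, did not overlap, at -0.046 to 0.042 in wild-type and -0.307 to -0.063 in Eda-/- libraries. Of the 18, 14 had a log2 fold change below 0, against 6526 of all 13178 tested genes. The 10 genes themselves summed to 58.0 to 76.0 CPM in wild-type and 47.9 to 53.4 CPM in Eda-/- libraries.

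Arterial and venous genes, 13 listed and 9 tested, also gave 0 calls with edgeR, DESeq2 or limma-voom, with a median of -0.18 (-0.01 without wild-type 1) and 1 lower at an unadjusted edgeR p under 0.05. The venous genes Nr2f2 and Ephb4 stood at 13.1 ± 1.47 against 11.5 ± 0.426 CPM (-0.18, edgeR adjusted p = 0.32) and at 4.79 ± 0.740 against 3.28 ± 0.13 CPM (-0.54, edgeR adjusted p = 0.0675), and the arterial gene Efnb2 at 1.83 ± 0.343 against 1.99 ± 0.235 CPM (0.11, edgeR adjusted p = 0.825). Of 7 lymphatic endothelial genes 3 were tested and 0 passed by the same tools (1 lower unadjusted): Reln (-0.19), Pdpn (-0.94, edgeR adjusted p = 0.0964) and Flt4, the VEGF-C receptor (-0.62, edgeR adjusted p = 0.298). The lymphatic list aside, the vascular and NF-kB lists held 97 further genes. Of these 70 were tested, with 1 higher and 13 lower, a median log2 fold change of -0.22, and 8 lower without Eda-/- 2. That count includes the NF-kB responsive genes described next. Without that list, 64 of 90 genes were tested, and 1 was higher and 8 were lower, with a median of -0.18. Genes that also stand in a vascular list were kept, so Cx3cl1 remains among the 8. Over all tested genes 6.21% passed as higher, 6.9% as lower and 13.1% in either direction. The 8 became 5 without wild-type 3 or Eda-/- 1 and 4 without Eda-/- 2 or Eda-/- 3.

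**Figure D4:**
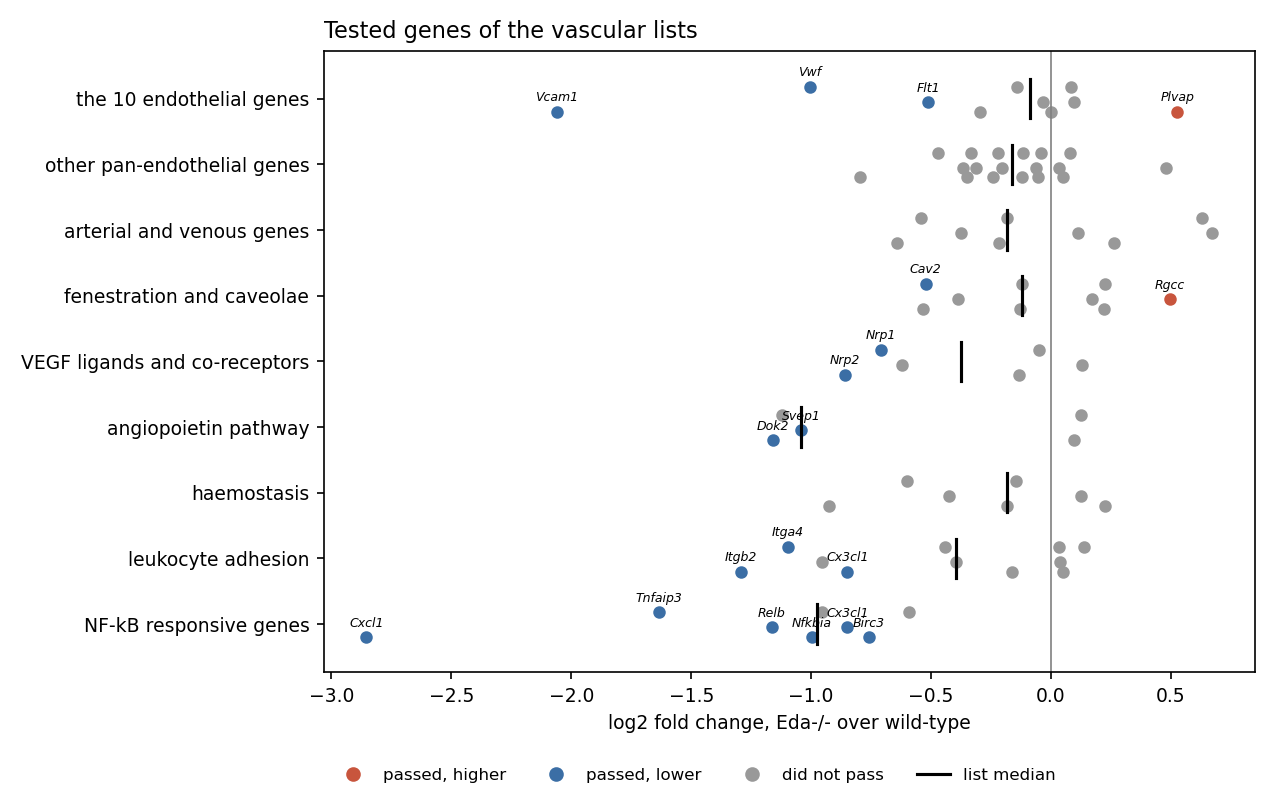
Log2 fold change, Eda-/- over wild-type (x axis), of every tested gene of 9 lists (rows); red and blue points passed as higher and lower, grey points did not pass, and the black bar is the list's median. The pan-endothelial, haemostasis and arterial and venous lists hold grey points alone, while 6 of the 8 NF-kB responsive genes are blue.

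Markers of other cells and states moved along with Vcam1 and Vwf. Vcam1 is a classical target of NF-kB in activated endothelium and is also made by macrophages and stromal cells, and Vwf is also made by megakaryocytes and carried by platelets. Of 8 tested NF-kB responsive genes (10 listed, Vcam1 not among them) 6 passed as lower and 0 as higher, with a median of -0.98. Cx3cl1, given above, was among these 6, and the others included Nfkbia (-1.0, edgeR adjusted p = 0.0011) and Tnfaip3 (-1.63, 0.0014), which encode inhibitors of NF-kB, and the chemokine Cxcl1 (-2.85, 0.0013). The list summed to 97.0 to 149 CPM in wild-type and 57.8 to 64.4 CPM in Eda-/- libraries.

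Among 11 macrophage markers, all tested, 6 passed as lower with a median of -1.26, including Tyrobp (-1.71, edgeR adjusted p = 0.0039), Mrc1 (-0.93, 0.0049) and Csf1r (-1.01, 0.0059), and 3 passed without Eda-/- 2 or without Eda-/- 3. Their sum was 67.5 to 119 CPM in wild-type and 32.1 to 42.5 CPM in Eda-/- libraries. Of 10 interferon response genes 9 were tested and 1, Gbp6, passed as lower (-3.40, edgeR adjusted p = 0.0137), a call lost without Eda-/- 1 (0.068). The median of the list was -1.91, and 5 genes passed as lower with DESeq2, 7 without edgeR's robust fit and 1 with limma-voom. Without wild-type 1, when all 10 were tested, 8 passed as lower, and without wild-type 3 there were 4. The interferon list summed to 24.1 to 103 and 13.0 to 19.6 CPM. For the NF-kB, macrophage and interferon lists wild-type 3 was the highest library, as it was for Vcam1 and Vwf. It was also the highest for Flt1, Pecam1 and Tek and for the sum of the 10 endothelial genes (76.0 CPM). The same held for the pan-endothelial (56.2), pericyte and smooth muscle (158), fibroblast (442) and myoepithelial and basal (107) sums. For the platelet and red cell sums wild-type 2 was the highest. Without wild-type 3 Vwf still passed, at -0.79, and Vcam1 at -1.56. The part of macrophages and of the NF-kB and interferon states in the difference of Vcam1 was not tested.

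Red cell and platelet transcripts were listed as markers of blood left in the vessels, which was not itself measured. Of 7 platelet genes 2 were tested and 1 passed as lower, Pf4, platelet factor 4 (-1.82, SE 0.38, edgeR adjusted p = 0.0052), and the list summed to 15.7 to 20.6 CPM in wild-type and 7.22 to 14.0 CPM in Eda-/- libraries. All 5 red cell genes were tested and 3 passed as lower: Hba-a2 (-2.68, edgeR adjusted p = 0.0074), Hbb-bt (-2.55, 0.0161) and Alas2 (-1.03, 0.0488). Hbb-bt lost its call without wild-type 2 (0.0634) or Eda-/- 1 (0.0907), and Alas2 without any 1 library other than Eda-/- 2 (up to 0.195), with DESeq2 (0.102) and without edgeR's robust fit (0.0677). Hba-a2 and Hbb-bt have near-identical copies, so that their reads may have been divided between copies. The red cell sum was 19.5 to 29.1 CPM against 5.15 to 14.7 CPM. The part of platelets and residual blood in the difference of Vwf was not tested.

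Of 11 pericyte and smooth muscle genes, all tested, 2 passed as lower and 0 as higher, with a median of -0.23. They were Myh11 (-0.38, edgeR adjusted p = 0.0381) and Cnn1 (-0.57, 0.0474), genes of the contractile apparatus. The smooth muscle genes Acta2, Tagln and Des did not pass, nor did Notch3 or the pericyte markers Pdgfrb (-0.11), Cspg4 (-0.0049), Rgs5 (0.18), Kcnj8 (0.38) and Abcc9 (0.36). Both calls were lost without wild-type 2 or 3 and without Eda-/- 1 or 3 (adjusted p 0.0733 to 0.204), Myh11 also without Eda-/- 2 (0.0538) and Cnn1 without wild-type 1 (0.0547). Myh11 was also lost with limma-voom (0.0585) and with the GC content and length trend removed (0.0627), and Cnn1 with DESeq2 (0.115), limma-voom (0.0675), a replicate block (0.0732) and without the robust fit (0.065). Cnn1 also stands in the list of myoepithelial and basal cells, the contractile cells around the acini, of which 6 of 7 genes were tested and 3 passed as lower: Cnn1, Mylk (-0.71, edgeR adjusted p = 0.000414) and Trp63 (-0.83, 0.00418). That list had a median of -0.56 and summed to 86.7 to 107 CPM in wild-type and 56.1 to 73.1 CPM in Eda-/- libraries. The pericyte and smooth muscle list summed to 115 to 158 CPM in wild-type and 99.7 to 110 CPM in Eda-/- libraries. Among 9 fibroblast genes 4 passed as lower, including Gsn (-0.75, edgeR adjusted p = 4.5e-05) and Dcn (-0.42, 0.0050), with sums of 419 to 442 and 290 to 297 CPM. Fabp4, a fatty acid binding protein of adipocytes that capillary endothelium also makes, was higher, at 0.75, 0.41 and 1.03 CPM in wild-type and 3.14, 3.19 and 2.34 CPM in Eda-/- libraries (1.98, SE 0.32, edgeR adjusted p = 0.00069). It stands in the adipocyte list, whose other 4 genes had too few reads to be tested.

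**Figure D5:**
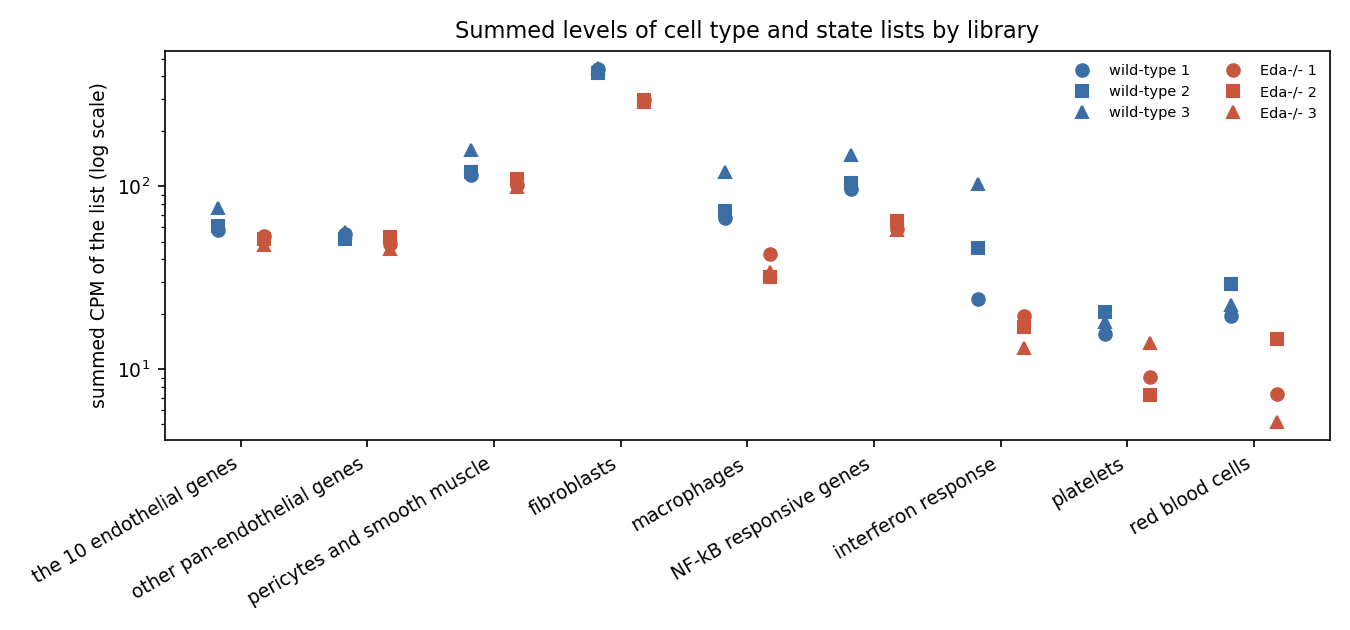
Summed CPM of the genes of each list (y axis, log scale) in every library, blue for wild-type and red for Eda-/-, with marker shape for the library number. The pan-endothelial sums share a range between groups and the sums of the other 8 lists do not. Wild-type 3 is highest for every list except platelets and red blood cells.

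For each of the 4 genes that passed, the tested genes with a mean of at least 5 CPM whose log2 CPM ran most like it over the 6 libraries were found by Pearson's r, given as a description, since all of them share the same libraries and the same split by genotype. Genes with r over 0.95 numbered 209 for Plvap, 122 for Flt1, 97 for Vwf and 82 for Vcam1, so those named are the top of many. Plvap ran most like Baiap2, an actin adaptor (r = 0.998), Eef1g, a subunit of translation elongation factor 1 (0.997), and Tmem147, a membrane protein of the endoplasmic reticulum (0.996). Flt1 ran most like Tnfaip3 (0.998), Nfkbia (0.995) and H2-Aa (0.995), a chain of MHC class II. Vwf ran most like Apod, a lipid-binding lipocalin (0.998), Wdr44, a Rab11-binding protein (0.992), and Myo5a, a vesicle motor (0.991). Vcam1 ran most like Rap1b, a small GTPase (0.994), Lamc3, a laminin chain (0.993), and Cybb, the phagocyte oxidase subunit (0.992). None of these 12 genes is in the pan-endothelial list, but Cd34 alone of that list had a mean of at least 5 CPM. The other pan-endothelial genes were not among the genes compared, so their absence here says nothing about them.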

How the data were processed

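Per the labels' protocols, frozen glands were lysed with beads in TRIzol, RNA was column-purified and depleted of ribosomal RNA, and libraries were directional. The authors deposited a table of raw read counts per gene, with 1 column per sample; the submitters' processing notes name STAR, featureCounts, Trimmomatic, bcl2fastq, DESeq2 and GRCm38.p5. Versions, annotation and the strand setting are not stated there, and antisense overlaps are uncertain. Every column was matched to a sample by name (0 unmatched). Symbols and coordinates came from GENCODE M21 (50462 of 50686 identifiers), and promoters from RefSeq, which held 5 of the 10 genes.

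Counts were tested with edgeR 4.0.16 (R 4.3.3): filterByExpr with a minimum count of 10 (13178 genes, at least 99.7% of each library's counts), TMM scaling, robust quasi-likelihood fit with genotype as the only term, two-sided tests, and Benjamini-Hochberg adjustment over all genes at 0.05. The common biological coefficient of variation was 0.103. SE is the absolute log2 fold change over the root of F. Fold changes in the text come from this fit. Ratios within a library were compared by exact permutation. Intervals cover the spread between these 3 libraries a group.

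The endothelial genes and all lists were chosen with earlier results of these data known. Named beyond the 10 genes were up to 4 passing genes per list by p, or up to 3 by mean CPM where none passed, and the 3 genes with mean CPM of at least 5 most like each passing gene. Vegfa, Ptprb, Angpt1, Icam1, Itgb1 and Gtpbp3 were chosen after their values were seen, and not every gene the rule names is given. Alternatives were DESeq2 1.42.0, limma-voom (limma 3.58.1), other scalings and filters, removal of the 20 most abundant genes, a fit that was not robust, a replicate block, a trend on GC content and length (mgcv 1.9.3), and leaving out each library. Scripts were tested on simulated data. No 2 libraries agreed within sampling noise (chi-square per degree of freedom of at least 9.62 within groups).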

Additional observations from a re-analysis of the deposited data

How the results depend on the processing

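Flt1 and Vwf kept direction and call under all 16 alternatives, and Vcam1 under all but 2. Endothelial genes higher numbered 0 with DESeq2, library totals, no low-count filter and a replicate block, and also 0 whichever library was left out; those lower numbered 2 to 3. Genes higher and lower over the whole table numbered 819 and 909 in the main test, 246 and 4365 under library totals, 1448 and 845 with the GC content and length trend removed, and 561 to 677 and 599 to 834 when 1 library was left out. Under library totals the median gene stood at -0.28 and with no low-count filter at -0.10, against 0.003. The 97 other genes of the vascular lists, NF-kB responsive genes included, gave 0 higher and 27 lower under library totals, and 1 higher and 8 to 12 lower when 1 library was left out. With the NF-kB responsive list left out, an alternative chosen after seeing the data, 8 were lower. Cx3cl1, which is also in the leukocyte adhesion list, was still among them.

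Same-numbered libraries did not deviate together (correlations -0.04, 0.02 and -0.09), so numbers were not taken as pairs; with the replicate block 712 genes were higher and 896 lower. Values that changed sign under library totals were Kdr (-0.18), Tek (-0.20), Emcn (-0.28), Efnb2 (-0.17), Egfl7 (-0.20), Itgb1 (-0.24), Ptprb (-0.18), Rgs5 (-0.11) and Vegfa (-0.15), and with the GC content and length trend removed Pecam1 (0.026), Cd93 (0.0062), Cspg4 (0.10) and Gtpbp3 (0.034). Cspg4 also changed sign with limma-voom (0.012). Emcn, at 0.00, also changed sign with DESeq2 (-0.0025), limma-voom (-0.0095), DESeq2 size factors (-0.0020), no low-count filter (-0.0057), a filter of 1 CPM in 3 libraries (-0.0061), the 20 most abundant genes removed (-0.00039) and the replicate block (-0.0087). When 1 library was left out, values that changed sign ran from -0.068 to 0.053 for Pecam1, -0.075 to 0.32 for Tek, -0.30 to 0.14 for Tie1, -0.23 to 0.15 for Emcn, -0.18 to 0.14 for Cd93, -0.0058 to 0.26 for Efnb2, -0.046 to 0.22 for Egfl7, -0.021 to 0.12 for Itgb1, -0.080 to 0.082 for Cspg4, -0.078 to 0.23 for Vegfa and -0.11 to 0.087 for Gtpbp3. For ratios they ran from -0.17 to 0.56 for Tek/Tie1, -0.63 to 0.030 for Cdh5/Pecam1, -0.027 to 0.26 for Tek/Pecam1, -0.34 to 0.19 for Tie1/Pecam1 and -0.22 to 0.18 for Emcn/Pecam1. None of these values passed in the main test, and the cause was not tested. With the mean of the pan-endothelial genes in place of Pecam1, an alternative chosen after seeing the data, the log2 ratios differed by -0.33 for Flt1, 0.70 for Plvap, -1.82 for Vcam1 and -0.81 for Vwf. Depth limits Cdh5, Tie1, Tek, Emcn and Vcam1, with 7 to 84 counts per library.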
